A study of Mus musculus with 6 samples.

Results

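The mRNAs of 10 genes that regulate NF-κB signaling were compared between WT and Nfkb2-/- dendritic cells grown from mouse bone marrow (BMDCs). The 10 genes were taken by name as members of the IκB family and the A20 group of inhibitors, by a rule that names no measured value. They are Nfkbia, Nfkbib and Nfkbie, which encode the cytoplasmic inhibitors IκBα, IκBβ and IκBε, Nfkbid, Nfkbiz and Bcl3, which encode nuclear IκB proteins, and Tnfaip3, Tnip1, Tnip2 and Cyld of the A20 group. The word inhibitors is used here as a name for the whole set, although the product of Nfkbiz is a coactivator of some genes. All 10 were found among the 56748 Ensembl gene IDs of the count data, and all 10 were among the 21849 genes with enough counts to be tested.

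NF-κB dimers wait in the cytoplasm bound to IκB proteins, and an activated IκB kinase marks these for destruction by a ubiquitin ligase that carries the β-TrCP subunit. Freed dimers enter the nucleus and switch on genes that include Nfkbia and Tnfaip3, whose products shut the pathway down again, so that the mRNAs of these inhibitors are commonly read as a record of NF-κB activity. The product of Nfkb2, p100, is itself an IκB-like inhibitor of RelB and is processed to p52 in the noncanonical pathway, which in dendritic cells accompanies differentiation and maturation.

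RNA was sequenced from unstimulated BMDCs of the C57BL/6 background with 3 libraries per genotype, WT and global Nfkb2-/-. The deletion was present in every cell from which these cultures were grown and not in dendritic cells alone. Marrow cells of both genotypes received 20 ng/mL GM-CSF, a myeloid growth factor, for 5 days and then GM-CSF with 10 ng/mL IL-4 for 4 days. The age and sex of the mice for these libraries were not given in the sources used here, and the paper describes the cultures as mostly CD11c+ cells, not as a sorted population. Depth was 43126299, 31622131 and 33211096 counts in WT replicates 1, 2 and 3, and 29863927, 31622146 and 55623068 counts in Nfkb2-/- replicates 1, 2 and 3. At this depth 3 counts were worth at most 0.103 CPM (counts scaled to a common library size, here with TMM factors), far below every value of the 10 genes.

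Some libraries stood apart. In Nfkb2-/- replicate 1, 47952 genes had at least 1 count, against 27692 to 33841 genes in the other 5 libraries. WT replicate 3 held 142 CPM summed over 9 macrophage markers, against 782 and 926 CPM in WT replicates 1 and 2, and 19860 CPM summed over 10 mature dendritic cell markers, against 13956 and 10058 CPM. Values without these libraries are given beside the results that rest on them.

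The promoters of these genes are shown first because some of the inhibitors, such as Nfkbia and Tnfaip3, are textbook targets of the factors they inhibit. RefSeq promoters (GRCm38.p6), running from 250 bases before to 50 bases after a transcript start, were found for 9 of the 10 genes (all but Nfkbiz), with 3 starts for Nfkbid and 2 for Tnfaip3. Both strands were searched for the 10-letter κB consensus and for GGANNTTCC, a 9-letter motif that can overlap it. The consensus occurred in 8.46% of all 32851 promoters in the table, GGANNTTCC in 4.26% and either in 10.7%. Counted by gene, 9.55% of 27025 genes had the consensus at 1 start or more, and 7 of the 9 inhibitor genes did. A match describes letters in these windows and does not show that a factor binds there. In the windows of 30 bases below, written 5′ to 3′ on the strand of the gene, the capitals mark the match. They cover every matched gene, and 1 further match each of Nfkbie and Tnfaip3 is drawn in the map of motif positions only.
Nfkbia: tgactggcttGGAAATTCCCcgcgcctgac
Nfkbia, upstream: ctggtcgggaGGACTTTCCagccactcagg
Nfkbie: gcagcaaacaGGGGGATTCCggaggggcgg
Nfkbid: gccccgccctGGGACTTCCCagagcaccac
Nfkbid, downstream: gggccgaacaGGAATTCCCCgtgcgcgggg
Bcl3: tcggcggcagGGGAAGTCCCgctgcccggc
Tnfaip3: tcacgtgactGGAATTTCCatcggaaatcc
Tnfaip3, next to the start: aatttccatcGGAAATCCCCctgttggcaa
Tnip1: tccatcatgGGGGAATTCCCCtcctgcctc
Cyld: ttgaccgagcGGAAAGTCCCttcagccagc

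The Nfkbia matches began 29 and 178 bases before its start (chr12:55492657-55492686 and chr12:55492806-55492835, minus strand). Both lay outside annotated genes in GENCODE M21, as did the windows of Nfkbie (chr17:45555584-45555613, plus strand, match 106 bases before the start) and Tnip1 (chr11:54962978-54963007, minus strand, 58 bases). The Tnip1 match was the longest, since overlapping consensus matches joined into 12 bases that read the same on both strands. The Cyld window (chr8:88696863-88696892, plus strand, 155 bases before the start) was also outside annotated genes. The matches of Nfkbid stood before its second start (chr7:30422170-30422199 and chr7:30422215-30422244, plus strand), inside an intron of a longer Nfkbid transcript. The Tnfaip3 windows (chr10:19015415-19015444 and chr10:19015403-19015432, minus strand) overlapped each other. The first Tnfaip3 window lay in an intron of a longer Tnfaip3 transcript and the second reached an exon, with matches 24 and 12 bases before the start. The Bcl3 match (chr7:19822734-19822763, minus strand) began at base 3 of the transcript, in an exon. Neither motif was found in the windows of Nfkbib or Tnip2.

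**Figure D1:**
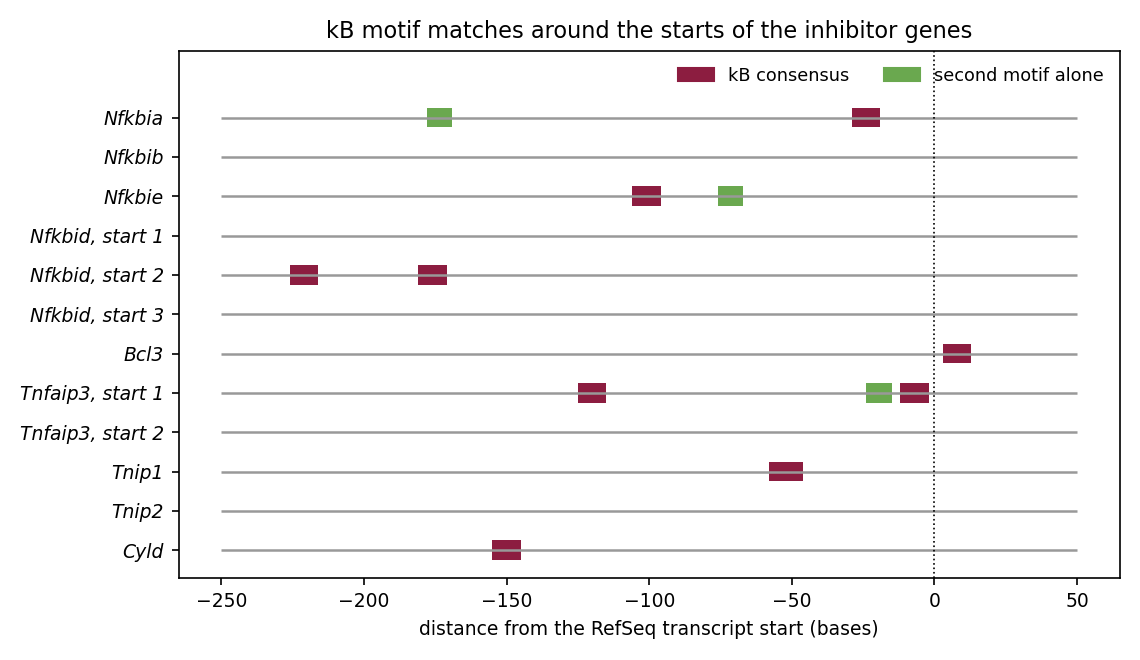
Positions of κB motif matches in 12 RefSeq promoter windows of 9 inhibitor genes, in bases from the transcript start (dotted line at 0). Dark red bars are matches to the κB consensus and green bars are matches to GGANNTTCC alone. At least 1 consensus match is drawn for 7 genes, and the rows of Nfkbib and Tnip2 are empty.

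Nfkb2, the gene targeted in the knockout (chr19:46304320-46312385, plus strand, GRCm38), measured 215, 154 and 355 CPM in WT and 44.8, 32.3 and 32.6 CPM in Nfkb2-/- BMDCs. The gene fell by 2.72 on the log2 scale (standard error, SE, 0.33, adjusted p = 0.0307 by edgeR's quasi-likelihood test), and each library labelled Nfkb2-/- was below every library labelled WT. Without WT replicate 1, or without any 1 of the Nfkb2-/- libraries, its adjusted p lay between 0.0876 and 0.163, and edgeR called no gene at all, so that the calls of single genes given here rest on all these libraries. Gene counts do not show which exons the remaining reads came from. Exons of Nfkb2 share 11.6% of their bases with AC114539.1 and 6.52% with Psd, both on the opposite strand. Psd had a log2 fold change of -2.03 (edgeR adjusted p = 0.0541) and AC114539.1 one of 0.0005. The part of their reads in the values of Nfkb2 was not tested. Nfkb1, its paralog that encodes the other IκB-like precursor p105, measured 346, 383 and 582 CPM in WT and 504, 450 and 423 CPM in Nfkb2-/- BMDCs, which overlapped. Per kb of exon, Nfkb2 made up 58.4% ± 6.05 (SD, n = 3) of the summed level of both precursors in WT and 17.3% ± 1.57 (SD, n = 3) in Nfkb2-/- BMDCs.

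By level per length, Nfkbia led the 10 inhibitors in every library. Its mean over the 6 libraries was 162 CPM per kb, at the 99.3 percentile of all genes tested, and its lowest library (107 CPM per kb) was above the highest value of any other inhibitor (51.5 CPM per kb, Nfkbib in WT replicate 3). Nfkbib (25.7), Nfkbie (21.9), Tnfaip3 (19.9), Tnip1 (18.9), Cyld (16.1), Bcl3 (10.8) and Tnip2 (8.91 CPM per kb) followed by mean level per length. Within this run each gene's range over the 6 libraries overlapped that of the next, so that neighbours in the order were not resolved, although Nfkbib and Nfkbie lay above Bcl3 and Tnip2 in every library. Nfkbid (4.99) and Nfkbiz (3.62 CPM per kb) were lowest, with ranges that overlapped each other but not that of Tnip2. Length was taken as all annotated exon bases of a gene, from 1610 for Nfkbia to 12576 for Cyld, so that genes with long alternative exons are placed too low.

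**Figure D2:**
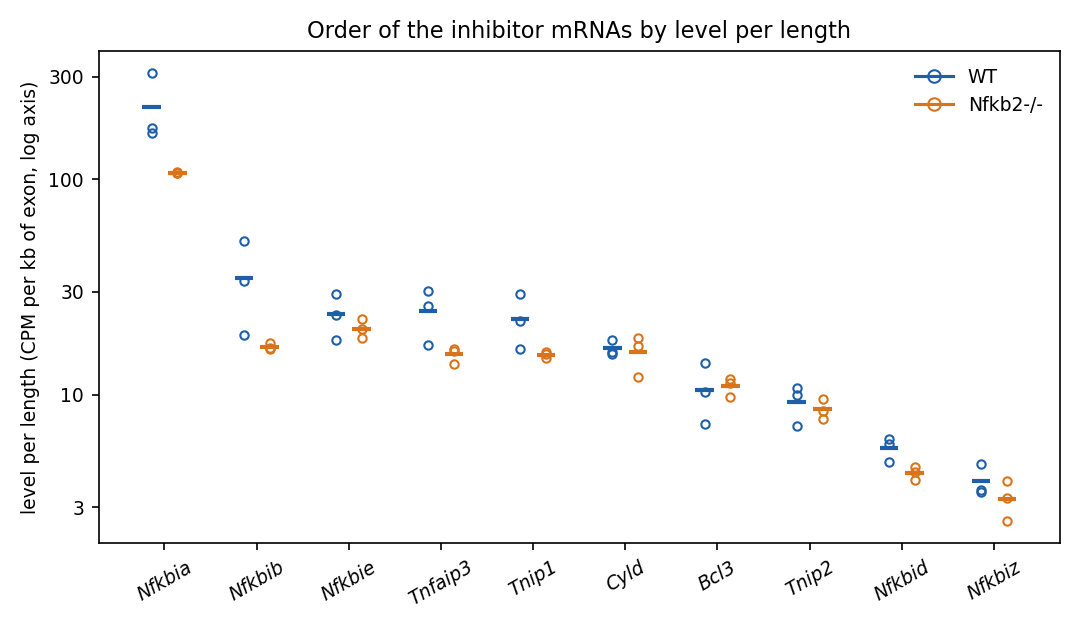
Level per length of the 10 inhibitor mRNAs in CPM per kb of exon on a log axis, ordered by their mean, with open circles for libraries and bars for the mean of 3 libraries (blue WT, orange Nfkb2-/-). Nfkbia stands above all others, between 107 and 311 CPM per kb, while the genes from Nfkbib to Tnip2 overlap their neighbours.

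The cytoplasmic IκB mRNAs held the largest differences between the genotypes. Nfkbia (ENSMUSG00000021025, chr12:55489410-55492647, minus strand) measured 279, 265 and 501 CPM in WT replicates 1, 2 and 3 and 172, 175 and 172 CPM in the Nfkb2-/- replicates. All Nfkb2-/- libraries lay below all WT libraries and within a few CPM of each other, while WT replicate 3 was far above the other WT libraries. The means were 348 ± 133 CPM (SD, n = 3) in WT and 173 ± 1.74 CPM (SD, n = 3) in Nfkb2-/- BMDCs, 2.01-fold lower in the knockout. The log2 fold change of Nfkbia was -1.01 (SE 0.26), with an unadjusted p of 0.00560 and an adjusted p of 0.117 from edgeR, which did not pass the threshold of 0.05.

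Nfkbib (ENSMUSG00000030595, chr7:28758251-28767512, minus strand), whose product binds Rel dimers more lastingly than IκBα, measured 73.2, 41.1 and 112 CPM in WT and 35.8, 37.5 and 35.4 CPM in Nfkb2-/- BMDCs. The Nfkb2-/- libraries again lay together and below every WT library, but WT replicate 2 stood only a little above them. Its log2 fold change was -1.06 (SE 0.33, edgeR adjusted p = 0.170). Exons of Nfkbib share 14.5% of their bases with Ccer2 and 1.94% with Sirt2 on the opposite strand, and whether counting used strand is not given in the sources used here. Ccer2 stayed below 1 CPM in every library. Sirt2, a deacetylase gene, measured 107, 77.6 and 120 CPM in WT and 78.1, 75.7 and 73.4 CPM in Nfkb2-/- BMDCs, with the WT order of Nfkbib and a log2 fold change of -0.42 (edgeR adjusted p = 0.303), and the part of its reads in the values of Nfkbib was not tested. Nfkbie (ENSMUSG00000023947, chr17:45555703-45563169, plus strand), an IκB that mainly restrains RelA and c-Rel, measured 71.1, 54.8 and 89.8 CPM in WT and 68.4, 55.5 and 61.1 CPM in Nfkb2-/- BMDCs. These values overlapped, with a log2 fold change of -0.22 (SE 0.20, edgeR adjusted p = 0.621).

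**Figure D3:**
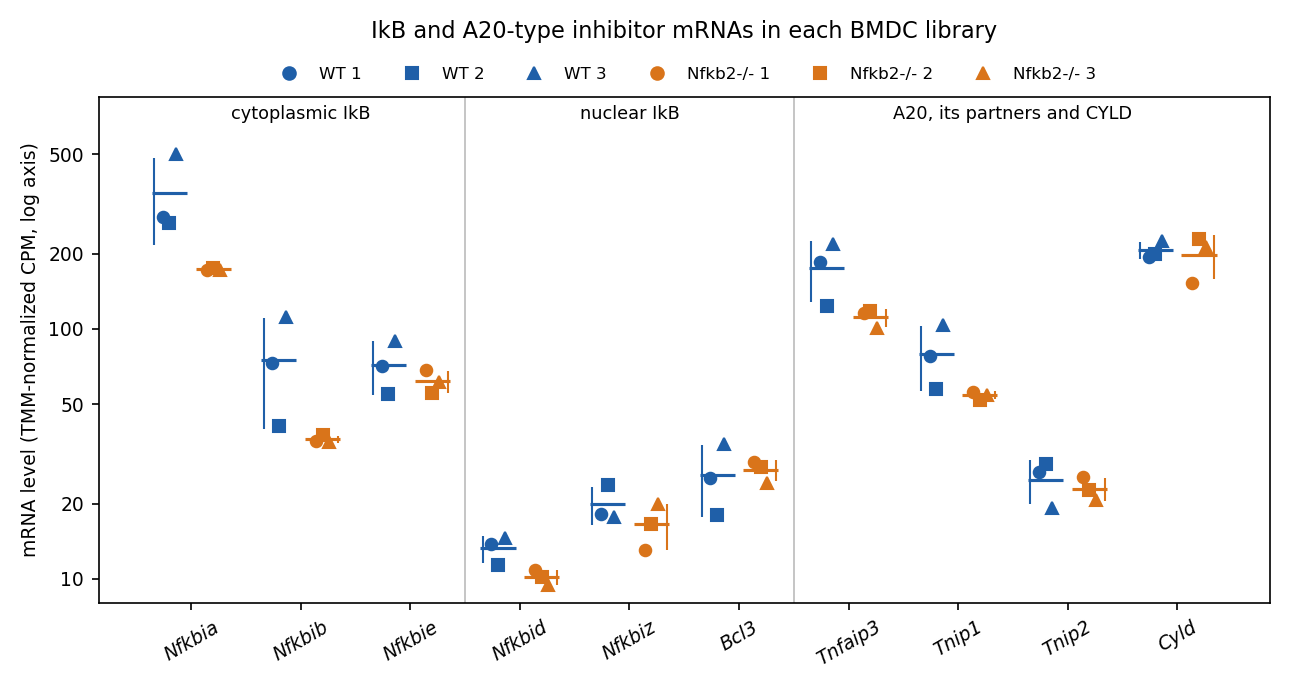
TMM-normalized CPM of the 10 inhibitor mRNAs on a log axis, with one symbol per library (circle, square and triangle for replicates 1, 2 and 3; blue WT, orange Nfkb2-/-), horizontal bars for the mean and vertical lines for the SD of 3 libraries. The orange values of Nfkbia, Nfkbib, Nfkbid, Tnfaip3 and Tnip1 lie below all blue values, and the genotypes overlap for the other 5 genes.

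The nuclear IκB mRNAs had lower mean levels per length than the cytoplasmic ones. Nfkbid (ENSMUSG00000036931, chr7:30421732-30428746, plus strand) encodes IκBNS, a regulator of NF-κB on DNA. It measured 13.8, 11.4 and 14.6 CPM in WT and 10.8, 10.2 and 9.45 CPM in Nfkb2-/- BMDCs. The genotypes did not overlap, by a margin of under 1 CPM, and the log2 fold change was -0.38 (SE 0.17, edgeR adjusted p = 0.316). Nfkbiz (ENSMUSG00000035356, chr16:55811375-55838899, minus strand), which encodes IκBζ, a coactivator of secondary response genes such as Il6, measured 18.1, 23.8 and 17.7 CPM in WT and 13.0, 16.5 and 20.0 CPM in Nfkb2-/- BMDCs. Here the values overlapped, with a log2 fold change of -0.27 (SE 0.22, edgeR adjusted p = 0.572). Bcl3 (ENSMUSG00000053175, chr7:19808462-19822770, minus strand) encodes a nuclear IκB that binds p50 and p52 dimers. It measured 25.4, 18.1 and 34.6 CPM in WT and 29.3, 28.1 and 24.3 CPM in Nfkb2-/- BMDCs. All Nfkb2-/- values of Bcl3 fell within the WT range, and its log2 fold change of 0.07 (SE 0.24, edgeR adjusted p = 0.913) turned to -0.02 without the count filter and to -0.14 without WT replicate 2.

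Within the A20 group, Tnfaip3 and Tnip1 were lower in every Nfkb2-/- library, and Tnip2 and Cyld overlapped. Tnfaip3 (ENSMUSG00000019850, chr10:19000910-19015657, minus strand) encodes A20, which edits ubiquitin chains on signaling proteins upstream of the IκB kinase. It measured 186, 123 and 218 CPM in WT and 115, 118 and 101 CPM in Nfkb2-/- BMDCs, a log2 fold change of -0.66 (SE 0.22, edgeR adjusted p = 0.192). The lowest WT library was replicate 2, which was only just above the highest Nfkb2-/- library. Tnip1 (ENSMUSG00000020400, chr11:54910785-54962917, minus strand) encodes ABIN-1, an adaptor that brings A20 to ubiquitin chains. It measured 77.9, 57.4 and 104 CPM in WT and 56.0, 52.1 and 54.5 CPM in Nfkb2-/- BMDCs, a log2 fold change of -0.55 (SE 0.22, edgeR adjusted p = 0.258). As with Tnfaip3, WT replicate 2 nearly touched the Nfkb2-/- libraries.

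Tnip2 (ENSMUSG00000059866, chr5:34496087-34513991, minus strand) encodes ABIN-2, an A20 partner that also stabilizes the kinase TPL2. It measured 26.8, 28.8 and 19.3 CPM in WT and 25.5, 22.6 and 20.6 CPM in Nfkb2-/- BMDCs, with WT replicate 3 the lowest of all 6 libraries. Its log2 fold change was -0.12 (SE 0.20, edgeR adjusted p = 0.784). Cyld (ENSMUSG00000036712, chr8:88697028-88751945, plus strand) encodes a deubiquitinase that removes linear and lysine-linked chains. It measured 194, 199 and 225 CPM in WT and 153, 230 and 212 CPM in Nfkb2-/- BMDCs, and Nfkb2-/- replicate 1 was the low value. Its log2 fold change was -0.06 (SE 0.19, edgeR adjusted p = 0.904) and took the other sign, at 0.09, without Nfkb2-/- replicate 1. It was also above 0 with total counts in place of TMM (0.02) and without WT replicate 3 (0.01).

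None of the 10 inhibitors passed both limits of the main test, an adjusted p under 0.05 and a fold change over 1.2, by which 1.14% of all genes tested were called in either direction. An unadjusted p under 0.05 with a lower level in Nfkb2-/- BMDCs was found for 4 of the 10, Nfkbia, Nfkbib, Tnfaip3 and Tnip1, and for 8.04% of all genes. Without WT replicate 3 this count was 2, Nfkbia and Nfkbib, beside 7.61% of all genes. It was again these 2 without WT replicate 1 (5.59% of all genes) or Nfkb2-/- replicate 3 (5.44%). With Tnfaip3 added, it was 3 without Nfkb2-/- replicate 1 (10.8%) or 2 (5.60%). Without WT replicate 2 it was 5, the 4 and Nfkbid (9.28%). DESeq2 called 2 of the 10, Nfkbia (adjusted p = 0.00733) and Nfkbib (adjusted p = 0.0302), both lower, where it called 4.32% of all genes lower. Limma voom called 0 of the 10. For 5 of the 10, Nfkbia, Nfkbib, Nfkbid, Tnfaip3 and Tnip1, every Nfkb2-/- library was below every WT library, which held for 12.0% of all genes tested and for 17.7% of the 10646 genes that averaged 5 CPM or more. With total counts in place of TMM, this count was 2 of 10, Nfkbia and Nfkbib, beside 8.88% of all genes. The median log2 fold change was -0.32 over the 10 inhibitors and 0.08 over all genes tested.

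The size of these differences changed with single WT libraries, and their adjusted p-values changed with single libraries of both genotypes. Without WT replicate 3 the log2 fold changes were -0.65 for Nfkbia (adjusted p = 0.0764), -0.66 for Nfkbib (0.258), -0.48 for Tnfaip3 (0.324) and -0.32 for Tnip1 (0.440, all from edgeR). Without WT replicate 2 they were -1.17 for Nfkbia (adjusted p = 0.0535), -1.35 for Nfkbib (0.0209), -0.86 for Tnfaip3 (0.0358) and -0.74 for Tnip1 (0.0639, all from edgeR), so that Nfkbib and Tnfaip3 were called, in a fit that called 5.87% of all genes. Without Nfkb2-/- replicate 1, the library with counts on the most genes, the 4 values were -1.01, -1.06, -0.70 and -0.59. Each of these 4 genes was lower in Nfkb2-/- BMDCs with any 1 library left out.

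**Figure D4:**
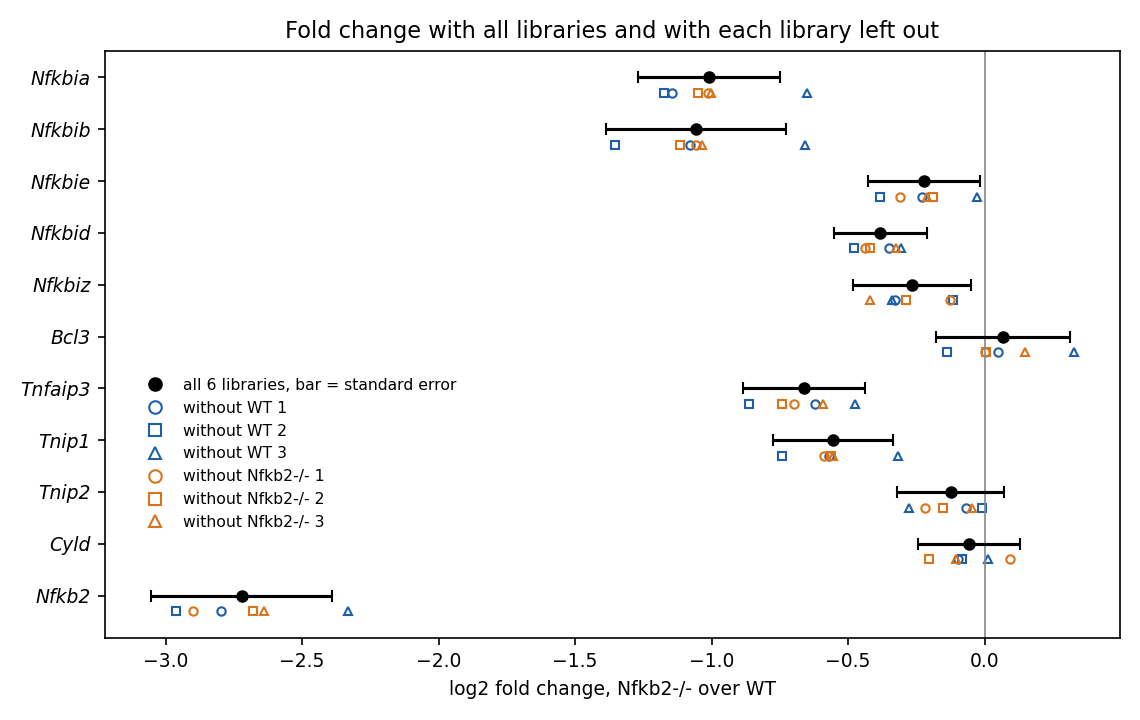
Log2 fold change (Nfkb2-/- over WT) of the 10 inhibitor genes and of Nfkb2 from edgeR, with filled points and standard error bars for all 6 libraries and open symbols for fits with 1 library left out (blue WT, orange Nfkb2-/-, shapes for replicates 1 to 3). For Nfkbia, Nfkbib, Tnfaip3 and Tnip1 all symbols lie below 0, and the value without WT replicate 3 lies nearest to 0.

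Most of the inhibitors varied more among WT libraries than among Nfkb2-/- libraries. The coefficient of variation was larger in WT for 8 of the 10 genes, with Cyld and Nfkbiz as the exceptions, and for 60.6% of the 10646 genes that averaged 5 CPM or more. Its median over the 10 was 25.9% in WT and 8.99% in Nfkb2-/- BMDCs, where those genes had 16.3% and 13.0%. Nfkbia stood at 38.1% in WT and 1.01% in Nfkb2-/- BMDCs, where counting alone gives 1.25%. Its WT spread rested on replicate 3, since replicates 1 and 2 alone gave 3.89%. Without WT replicate 3 the median WT value was 18.8% over the 10 and 9.97% over the 10646 genes, and 7 of the 10 and 42.7% of those genes varied more in WT. For 7 of the 10 the WT libraries stood in the same order, replicate 3 above 1 above 2, an order that 30.8% of the 10646 genes followed. The exceptions were Cyld, Nfkbiz and Tnip2.

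As a description of balance, the summed level per length of the cytoplasmic inhibitors was set beside that of Rela, Rel and Relb, the subunits that carry a transactivation domain. The inhibitors summed to 231, 201 and 392 CPM per kb in WT and 146, 144 and 143 CPM per kb in Nfkb2-/- BMDCs. The subunits summed to 355, 279 and 419 CPM per kb in WT and 249, 233 and 225 CPM per kb in Nfkb2-/- BMDCs, so that both sums were lower in every Nfkb2-/- library. Their ratio was 0.650, 0.722 and 0.936 in WT and 0.586, 0.618 and 0.636 in Nfkb2-/- BMDCs. The ratio was thus lower in the knockout by a small margin, with WT replicate 3 the highest. Nfkbia supplied 58.3% ± 4.33 (SD, n = 3) of the summed level per length of all 10 inhibitors in WT and 49.3% ± 0.417 (SD, n = 3) in Nfkb2-/- BMDCs.

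The inhibitors that were lower in every Nfkb2-/- library had the same WT order as the summed markers of mature dendritic cells. In these bulk libraries, fewer cells of a type and less RNA per cell cannot be told apart. The 10 mature markers (Ccr7, Cd83, Fscn1, Ccl22, Cd40, Cd86, Marcksl1, Socs2, Cacnb3 and Relb) summed to 13956, 10058 and 19860 CPM in WT and 9909, 9683 and 9213 CPM in Nfkb2-/- BMDCs. The WT order of these sums was that of Nfkbia and Nfkbib, which 30.8% of the 10646 genes that averaged 5 CPM or more followed, and the Nfkb2-/- sums lay close together. Log2 fold changes were below 0 for 9 of the 10 markers, with Socs2 at -0.10, and above 0 for Cd86 at 0.58. None of the 10 was called by edgeR, but 7 of them were lower with an unadjusted p under 0.05, against 8.04% of all genes. Only 3 were (Cd83, Fscn1 and Marcksl1) without WT replicate 3 (7.61% of all genes) or 1 (5.59%), or without Nfkb2-/- replicate 2 (5.60%) or 3 (5.44%). The count was 4 without Nfkb2-/- replicate 1 (10.8%) and 8 without WT replicate 2 (9.28%). DESeq2 called Cd83, Fscn1 and Marcksl1, all lower, where it called 4.32% of all genes lower. Without WT replicate 2, edgeR called 5, adding Ccr7 and Cd40, and 5.87% of all genes in either direction. Without overlap, 4 were lower (12.0% of all genes) and 1, Cd86, was higher (12.7%). The largest share of the sum was that of Ccl22, a chemokine gene, at 7787, 5890 and 10727 CPM in WT and 6072, 5826 and 5357 CPM in Nfkb2-/- BMDCs.

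Per 1000 CPM of these markers, Nfkbia stood at 20.0, 26.3 and 25.2 CPM in WT and 17.3, 18.1 and 18.7 CPM in Nfkb2-/- BMDCs. Nfkbib stood at 5.25, 4.08 and 5.63 CPM in WT and 3.61, 3.88 and 3.84 CPM in Nfkb2-/- BMDCs. Both were still lower in every Nfkb2-/- library on this scale, in which Ccl22 has the largest share. Ccl22 had a log2 fold change of -0.50, while the 10 markers ranged from -1.49 (Fscn1) to 0.58 (Cd86), with a median of -0.76. Ratios to single markers were not taken. Tnip1 stood at 5.58, 5.70 and 5.22 CPM in WT and 5.66, 5.39 and 5.92 CPM in Nfkb2-/- BMDCs, and Tnfaip3 at 13.3, 12.3 and 11.0 CPM in WT and 11.6, 12.1 and 10.9 CPM in Nfkb2-/- BMDCs. On this scale Tnip1, Tnfaip3 and Nfkbid overlapped between the genotypes. Nfkbie (5.09, 5.45 and 4.52 CPM in WT; 6.90, 5.74 and 6.64 CPM in Nfkb2-/- BMDCs) and Bcl3 (1.82, 1.80 and 1.74 CPM in WT; 2.96, 2.91 and 2.63 CPM in Nfkb2-/- BMDCs) were higher in every Nfkb2-/- library. Cd83, Cd40, Ccl22 and Relb are themselves NF-κB targets, and the part of maturation in the results was not tested.

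Markers of dendritic cells in general were present in all libraries. The 9 markers summed to 6284, 4972 and 8504 CPM in WT and 7183, 6892 and 7815 CPM in Nfkb2-/- BMDCs, with Cd74, the invariant chain of antigen presentation, the most abundant at 1870 to 3691 CPM. Itgax, which encodes CD11c, rose from 160, 277 and 123 CPM in WT to 745, 769 and 716 CPM in Nfkb2-/- BMDCs (log2 fold change 1.99, SE 0.30, edgeR adjusted p = 0.0414). It was the 1 marker of the 9 called by edgeR, where 1.14% of all genes were called in either direction. DESeq2 called Itgax and Dpp4, both higher, and 8.65% of all genes in either direction. Without overlap, 2 of the 9 were higher (12.7% of all genes) and 1, Zbtb46, was lower (12.0%). Zbtb46 measured 168, 151 and 218 CPM in WT and 115, 136 and 119 CPM in Nfkb2-/- BMDCs (log2 fold change -0.54, edgeR adjusted p = 0.192). Per 1000 CPM of these general markers, Nfkbia, Nfkbib, Nfkbie, Nfkbid, Tnfaip3 and Tnip1 were lower in every Nfkb2-/- library. None of the 9 macrophage markers was called by edgeR or DESeq2, although without the count filter edgeR called Fcgr1 higher (3.50% of all genes in either direction). The 9 summed to 534, 542 and 682 CPM in Nfkb2-/- BMDCs, between WT replicate 3 (142 CPM) and the other WT libraries. Csf1r, the most abundant of them, measured 239, 250 and 37.2 CPM in WT and 115, 131 and 157 CPM in Nfkb2-/- BMDCs. Without WT replicate 3, 5 of the 9 were lower with an unadjusted p under 0.05 (7.61% of all genes), against 0 of 9 with it (8.04%).

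Markers of other cell types summed to at most 231 CPM per list in any library. Granulocyte markers (8 of 9 tested, 0 called by edgeR) summed to 154, 231 and 84.1 CPM in WT and 118, 124 and 126 CPM in Nfkb2-/- BMDCs, with S100a8 the most abundant at 49.6 to 98.8 CPM. S100a8 had a log2 fold change of 0.37 and the other 7 tested were below 0. Of these, Ngp, Ltf and Retnlg (-1.81, -1.60 and -2.13) had an unadjusted p under 0.05, against 8.04% of all genes. Only Ngp did without WT replicate 1 (5.59% of all genes), WT replicate 2 (9.28%) or Nfkb2-/- replicate 3 (5.44%). Ngp, a neutrophil granule gene, measured 70.7, 80.5 and 18.0 CPM in WT and 13.8, 21.6 and 13.1 CPM in Nfkb2-/- BMDCs, with WT replicate 3 near the knockout values. Ngp and Ltf were called lower by DESeq2 (4.32% of all genes lower), and by edgeR without WT replicate 3 (1.27% in either direction). Without WT replicate 2, edgeR called none of these markers lower and S100a8 higher (5.87% in either direction). Without the count filter, edgeR called Ngp, Ltf and Retnlg lower (3.50% in either direction). Mast cell and basophil markers summed to 46.5 to 57.6 CPM, mostly Kit. Of the 6, 1 was called by edgeR, where 1.14% of all genes were called in either direction. This was Cpa3, a mast cell protease gene that fell by 1.84 on the log2 scale (adjusted p = 0.0413 from edgeR). Without overlap 3 of the 6 were lower (12.0% of all genes) and 1 was higher (12.7% of all genes). The higher 1 was Gata2, a transcription factor gene, at 1.33, 1.91 and 0.688 CPM in WT and 4.05, 3.66 and 3.22 CPM in Nfkb2-/- BMDCs. DESeq2 called Gata2 higher and Cpa3 lower, beside 8.65% of all genes in either direction, and Kit had a log2 fold change of 0.18. T cell markers summed to 2.17 to 17.9 CPM, with Cd28 the most abundant on average. Cd28 had a log2 fold change of -1.83, while Cd3e, Cd3g and Lck (2.62, 1.81 and 1.65) were above 0, each at 2.13 CPM or less in every library. Cd3g was higher without overlap, as 12.7% of all genes were. B cell markers summed to 0.619 to 5.76 CPM, with Pax5 the most abundant and Nfkb2-/- replicate 1 the highest. Erythroid markers summed to 3.92 to 5.72 CPM, mostly Alas2, with all 4 globin genes below the count filter. Stromal markers summed to 53.7, 14.2 and 1.41 CPM in WT and 25.0, 16.9 and 6.40 CPM in Nfkb2-/- BMDCs, led by Col1a2. None of the T cell, B cell, erythroid or stromal markers tested was called by edgeR or DESeq2, although edgeR called Cd28 lower without WT replicate 3 and, without the count filter, Cd28 and Col1a2 lower, and the part of these cells in the results was not tested.

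**Figure D5:**
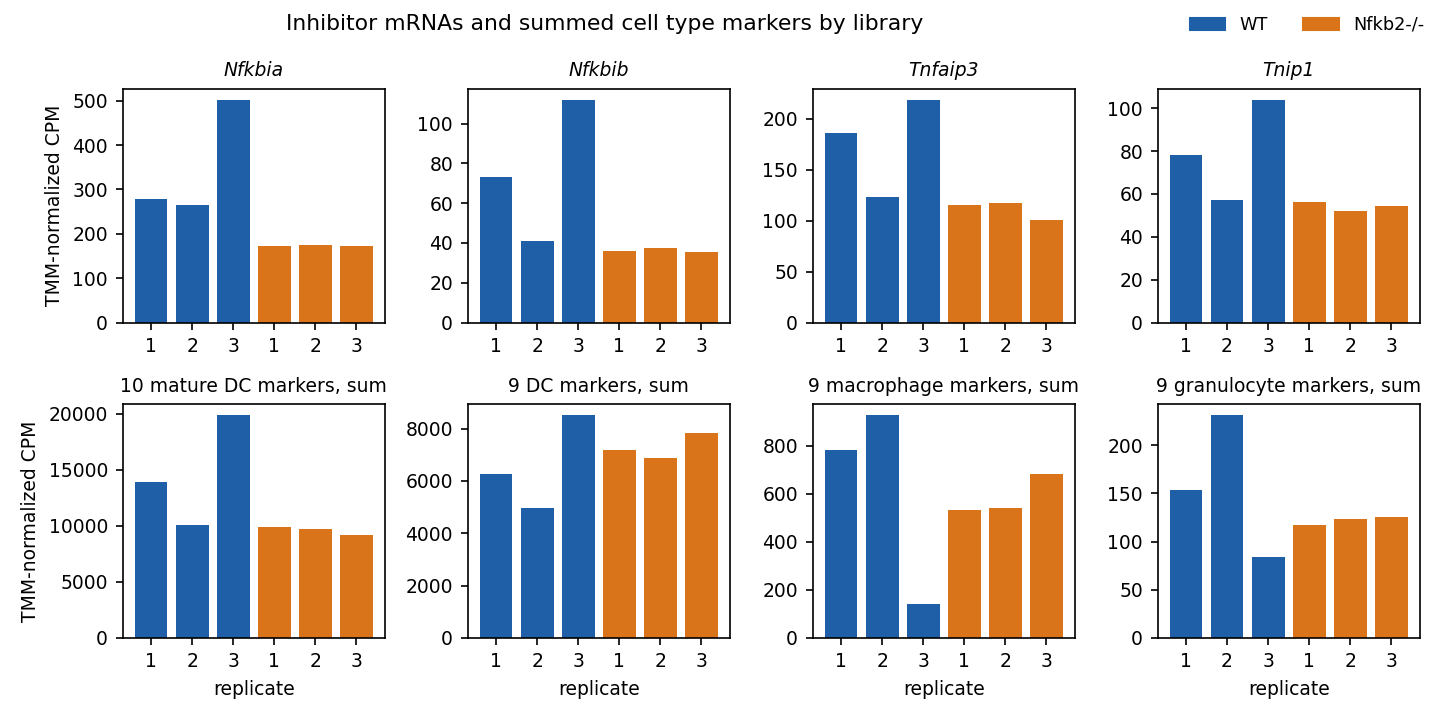
TMM-normalized CPM by library (bars from 0, blue WT, orange Nfkb2-/-) for Nfkbia, Nfkbib, Tnfaip3 and Tnip1 in the upper row, and summed CPM of 10 mature dendritic cell, 9 dendritic cell, 9 macrophage and 9 granulocyte markers in the lower row. The mature markers have their highest bar in WT replicate 3 (19860 CPM), as the 4 inhibitors do, and the macrophage markers their lowest (142 CPM).

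The rest of the pathway was read from the same fit, with 48 genes in 5 groups. Of the 48, 2 were called, both lower in Nfkb2-/- BMDCs, where 1.14% of all genes tested were called in either direction. Among these 2 was Nfkb2 itself, without which the count was 1 of 47. The other was Btrc, which encodes the β-TrCP subunit that recognizes phosphorylated IκB proteins for destruction. Btrc (chr19:45363734-45530013, plus strand) ends 774 kb before the targeted Nfkb2 on the same chromosome, and the part of this position in its change was not tested. Btrc fell from 35.9, 33.3 and 34.3 CPM in WT to 19.1, 18.5 and 19.9 CPM in Nfkb2-/- BMDCs, a log2 fold change of -0.85 (SE 0.13, edgeR adjusted p = 0.0420). Its replicates were tight in both genotypes, and its WT libraries did not follow the order of Nfkbia. The call of Btrc was lost with total counts in place of TMM (adjusted p = 0.0759), without WT replicate 1 (0.202) and without Nfkb2-/- replicate 1, 2 or 3 (0.0891, 0.240 and 0.196, all from edgeR). The other genes of this ligase (Fbxw11, Cul1, Skp1a and Rbx1) were not called. Skp1a and Fbxw11, the most abundant per length, had log2 fold changes of 0.03 and -0.40.

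Among the subunits, 4 of 5 were lower in Nfkb2-/- BMDCs, of which only Nfkb2 was called. Rel, which encodes c-Rel and was the most abundant per length at 233 CPM per kb, measured 2090, 1720 and 2394 CPM in WT and 1466, 1426 and 1345 CPM in Nfkb2-/- BMDCs. Relb measured 201, 119 and 260 CPM in WT and 140, 106 and 119 CPM in Nfkb2-/- BMDCs. Rela measured 72.3, 54.1 and 96.9 CPM in WT and 50.7, 45.8 and 44.3 CPM in Nfkb2-/- BMDCs. The genotypes did not overlap for Rel and Rela and overlapped for Relb, and the adjusted p-values were 0.203, 0.191 and 0.290 (edgeR). The WT libraries of all 3 genes stood in the order of Nfkbia.

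None of 21 kinases and adaptors was called by edgeR, with a median log2 fold change of -0.10, and 5 of the 21 were lower without overlap, against 12.0% of all genes. Tab2 and Birc3, the most abundant of them per length, had log2 fold changes of 0.01 and -0.46. None of the 3 genes of the linear ubiquitin ligase was called, and their log2 fold changes lay between -0.08 and 0.04, with Rbck1 at -0.08 and Sharpin at 0.04. None of 14 further inhibitors was called either, and 10 of the 14 had log2 fold changes below 0. Without overlap, 2 of the 14 were lower (12.0% of all genes) and 1 was higher (12.7%). Those lower were Rnf11, an A20 partner, and Spata2, which links Cyld to the linear ubiquitin ligase (log2 fold changes -0.43 and -0.21). Tnip3, the A20 partner ABIN-3 and the most abundant of the 14 per length ahead of Rnf11, was the 1 that was higher without overlap, at 327, 323 and 374 CPM in WT and 430, 630 and 606 CPM in Nfkb2-/- BMDCs (log2 fold change 0.70, SE 0.19, edgeR adjusted p = 0.132). With total counts in place of TMM, Tnip3 was called (0.78, adjusted p = 0.0430 from edgeR). The log2 fold changes of Tnip1 and Tnip3 thus had opposite signs. DESeq2 called 5 of the 48 genes, which were Btrc, Nfkb2, Rel, Traf6 and Tnip3, and 8.65% of all genes in either direction.

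Of 21 genes known to be induced by NF-κB outside the 10 inhibitors, 1 was called by edgeR, and 1.14% of all genes in either direction. DESeq2 called 6 of the 21, with Ccl5, Cd83, Il12b and Traf1 lower and Cxcl10 and Tnf higher, and 8.65% of all genes in either direction. Without WT replicate 2, edgeR called 7, these 6 and Cd40, beside 5.87% of all genes. Il12b, which encodes a cytokine subunit of mature dendritic cells, measured 110, 32.7 and 153 CPM in WT and 10.6, 13.7 and 10.4 CPM in Nfkb2-/- BMDCs and fell by 3.09 on the log2 scale (adjusted p = 0.0489 from edgeR). Its call was also lost without WT replicate 3 (adjusted p = 0.0622). The list was split in direction, with 5 genes lower (12.0% of all genes) and 2 higher (12.7% of all genes) without overlap and a median log2 fold change of 0.10. Ccl22 and Ccl5, the most abundant per length, had log2 fold changes of -0.50 and -1.52 (adjusted p = 0.404 and 0.101 from edgeR). Cd83 and Traf1 were lower without overlap and had the WT order of Nfkbia. Tnf measured 7.14, 13.0 and 2.13 CPM in WT and 28.1, 26.9 and 28.7 CPM in Nfkb2-/- BMDCs and stood higher in each Nfkb2-/- library, at a log2 fold change of 1.91 (adjusted p = 0.143 from edgeR). Its WT order was the reverse, with replicate 3 the lowest. Of the 16 response genes with a listed promoter, 6 had the κB consensus, as did 2 of 3 subunit genes (Rel and Nfkb2) and 3 of 18 kinases and adaptors.

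To describe which mRNAs followed each inhibitor, genes were ranked by Pearson's r of log2 CPM over the 6 libraries, among 10646 genes that averaged 5 CPM or more. With 6 points that share 2 genotypes and so many genes, high values arise for any gene. The nearest to Nfkbia were Foxo1, Vgll4 and Spire1 (r of 0.997 for each), and those to Nfkbib were Dok1, Rubcn and Prr14 (r from 0.997 to 0.998). Tnip1 was followed most closely by Cd40 (r = 0.999), the receptor through which T cells activate dendritic cells, then by Ap3b1 and Gtpbp1. The nearest to Tnfaip3 were Gm44950, Papss2 and Plekhg2, those to Nfkbie were Pnkd, Cyhr1 and Rogdi, and those to Nfkbid were Dop1b, Acvr1c and Gbgt1, with a first r between 0.996 and 0.998. Cyld was nearest to Aggf1, Srp54c and Fndc3a (first r 0.998). Lower values were reached for Tnip2 (Fbxl2, D10Wsu102e and Ly6c2, first r 0.983), Bcl3 (Adam8, Gmeb2 and Rpl39-ps, 0.977) and Nfkbiz (Gm40309, Iws1 and Fbxo22, 0.972). Among the inhibitors themselves, r was 0.99 between Nfkbib and Tnip1, 0.98 between Nfkbib and Tnfaip3 and 0.94 between Nfkbia and Nfkbib, but -0.73 between Nfkbiz and Bcl3.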

How the data were processed

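PolyA RNA-seq libraries of unstimulated BMDCs, 3 WT and 3 Nfkb2-/- as grouped by the sample labels, were analysed. The authors deposited raw counts per Ensembl gene for each library, without normalization, and described the replicates as biologically independent. The submitters' processing notes name HISAT2, GRCm38 and mm10, and the counting tool, annotation and use of strand are not given in the sources used here. A joined table held the same counts and was not used.

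Genes with a GENCODE M21 name and 50 counts or more in sum were kept, and IDs without a name (1.01% to 1.75% of a library's counts) stayed out. The genotypes were compared in R 4.3.3 with edgeR 4.0.16 (TMM, glmQLFit, glmQLFTest) and Benjamini-Hochberg adjustment over all 21849 genes, at an adjusted p under 0.05 and a fold change over 1.2. The standard error is the log2 fold change divided by the square root of F. CPM values are TMM-normalized. Alternatives were DESeq2 1.42.0, limma voom (3.58.1), RLE or total-count scaling, filterByExpr, no filter beyond 1 count, the replicate number as a block, and each library left out. Fits were checked on simulated counts. Depth was 29863927 to 55623068 counts. Counting alone gives the 10 genes a coefficient of variation with a median of 2.10% in WT and 2.48% in Nfkb2-/- libraries, and the Nfkb2-/- spread of Nfkbia, Nfkbib and Nfkbid was close to it.

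The 10 genes were set by name, but they, the lists and the tests were chosen with earlier results of these data known. Genes named are the 10, Nfkb2, called list members, the 2 most abundant per length in each pathway and response list, the most abundant marker of each cell type and the 3 nearest genes by r (log2 CPM with a prior count of 2). Others were named after their values were seen.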

Additional observations from a re-analysis of the deposited data

How the results depend on the processing

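Over 13 alternatives, the log2 fold changes of the 10 inhibitors kept their sign in 125 of 130 values. Those of Bcl3 and Cyld crossed 0: Bcl3 was -0.019 without the filter and ranged from -0.14 to 0.33 with 1 library left out, and Cyld was 0.019 with total counts and ranged from -0.20 to 0.092 with 1 library left out. DESeq2 and the fit without a filter each called 2 inhibitors, Nfkbia and Nfkbib, and between 0 and 2 were called with 1 library left out. Of the 48 other pathway genes DESeq2 called 5, and of the 21 response genes DESeq2 called 6 and the fit without a filter 8. Leave-one-out fits called 0 to 2 pathway genes and 0 to 7 response genes. The 248 genes called in all became 1890 with DESeq2, 488 with limma voom, 397 with filterByExpr and 1625 without a filter, and 0 to 1248 with 1 library left out. The edgeR count was 0 when WT replicate 1 was left out (2325 genes with an unadjusted p under 0.05), and likewise for Nfkb2-/- replicate 1 (4088 genes), 2 (2580) and 3 (2726). The log2 fold change of Nfkb2 ranged from -2.96 to -2.33 with 1 library left out, and its call was lost in the same 4 fits. The causes were not tested. Without the filter 46410 genes were tested, genes with few counts included, and their median log2 fold change was 0.60. The part of Nfkb2-/- replicate 1, the library with counts on the most genes, in this median was not tested. The number of inhibitors without overlap between the genotypes, all lower in Nfkb2-/- BMDCs, was 2 with total counts and 5 with RLE (12.5% of all genes lower). It was 5 or 6 with 1 library left out, where fewer libraries make overlap rarer and 14.1% to 21.7% of all genes met it. DESeq2 has the RLE scaling, and voom and the block fit that of TMM.

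The replicate numbers are shared by label only. Deviations from the group means over 15316 genes correlated at 0.138, 0.0597 and 0.0197 between libraries of the same number, and WT replicate 2 was closer to Nfkb2-/- replicate 3 (0.0779) than to its own number. With the replicate block edgeR called 0 genes, and so 0 pathway and 0 response genes, while 3331 genes had an unadjusted p under 0.05. The log2 fold change of Nfkb2 was then -2.65 (adjusted p = 0.0594).

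The lowest count of any inhibitor in a library was 310 (Nfkbid in Nfkb2-/- replicate 2), a gene for which counting alone gives a coefficient of variation of 5.14% among Nfkb2-/- libraries, where 6.87% was measured. IκB and A20 proteins were not measured in these libraries.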
